A study of Homo sapiens with 30 samples.

Results

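This account concerns 5493 stretches of the genome of human H1 cells in which pluripotent cells had no peak of accessible chromatin, and in which definitive ectoderm and each of the 8 neural populations made from it had one. They were found by merging the peaks of 10 deposited lists on chromosomes 1 to 22 wherever peaks overlapped by 1 bp or more. A list was taken as open at a merged region if at least 1 of its peaks lay there, and as closed otherwise. Of 476170 merged regions, 5493 (1.15%) were closed in the pluripotent list and open in the other 9. That pattern is what chose them, so it is not a result. Regions of 2 other kinds were used for comparison: the 78808 regions open in all 10 lists, and the 1773 regions closed in pluripotent cells and in ectoderm but open in the 8 lists that follow, that is, first open on day 2 and kept.

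The study followed wild-type H1 cells, an established human embryonic stem cell line, through stepwise differentiation in culture, and asked whether the anterior and the posterior brain arise from separate neural ectoderm populations. Chromatin accessibility was measured by OmniATAC-seq, in which a transposase inserts adapters into open DNA, on 50000 cells per library with 3 libraries per group. The pluripotent cells (hPSC) were taken on day 0. Definitive ectoderm (DE) was taken on day 1, after a day in CDM2 medium with A8301, Trametinib, C59 and LDN193189, which block the NODAL, MEK, WNT and BMP signals respectively. On day 2 this ectoderm had become either anterior neural ectoderm (aNE), grown with A8301, LDN193189, C59 and Thiazovivin, or posterior neural ectoderm (pNE), grown with A8301, LDN193189, TTNPB, FGF2, XAV939 and Thiazovivin. Each of these was then moved into forebrain (T), midbrain (M) or hindbrain (H) medium until day 4, which gave aNE_T, aNE_M, aNE_H, pNE_T, pNE_M and pNE_H. All 9 later groups passed through the same DE step, so none of them shows a neural cell that skipped it. The labels give a lower plating density in the anterior than in the posterior protocol for cells kept past day 2, so origin and density cannot be told apart. The labels give the forebrain medium of day 3 as XAV939, LDN193189 and FGF2. The composition of the midbrain and hindbrain media is not given in the sources used here. All groups come from 1 cell line, which limits them as a model of an embryo.

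Accessible sites away from genes mostly mark enhancers, short stretches of DNA where transcription factors bind and from which they act on genes that may lie far off. Promoters of widely used genes tend to be rich in CG dinucleotides and to be open in most cell types, whereas enhancers are more often opened in 1 lineage and closed again in another. When pluripotent cells lose their NODAL, BMP and WNT inputs they take a neural fate by default, and factors such as SOX2, the ZIC proteins and OTX2 are known to act in both the state left and the state entered.

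Each group has 1 peak list for its 3 libraries, with the start and end of each peak and no height, score or read count. There is therefore no spread between replicates to set a difference against, no test was possible, and the depth behind each peak is unknown. The width of a region in a list, or of its peak there, means below the bases under all peaks of that list in the region. In some regions a list has more than 1 peak. The lists held between 162041 peaks (aNE) and 302355 peaks (pNE_H) on chromosomes 1 to 22, with 205831 in hPSC and 238994 in DE. Membership rests on any overlap: when a list counted as open only where its peaks covered at least 50% of the region, and as closed otherwise, 2554 regions met the rule, of which 507 were members. The gene starts of marker genes did not separate the groups: the starts of 15 of 15 pan-neural genes were open in every list except aNE_H, which had 14. The 8 of 8 pluripotency genes open at their start in hPSC were also open in DE, aNE, pNE and aNE_T, and 7 of 8 were open in each of the other day 4 lists. The starts of 8 of 8 mesendoderm genes were open in all 10 lists. Peaks at gene starts are thus no check of the labels.

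The letters that lie in such regions can be shown where a region holds a gene start, because RefSeq promoter sequences (build GRCh38.p14, from 250 bases before to 50 bases after a start) were at hand. The 6 protein-coding starts printed first are those whose whole window lies inside a member and whose narrowest peak among the 9 lists is widest. RGR encodes an opsin of the retinal pigment epithelium and Müller glia, and its window is chr10:84244803-84245102 on the + strand. The C2orf80 window is chr2:208189981-208190280 on the - strand. IRF8 encodes a transcription factor of blood cells, and the window of its start in the table is chr16:85902580-85902879 on the + strand, 3668 bp inside the gene. CLIP4 encodes a protein of the microtubule-binding CLIP family, with the window chr2:29097476-29097775 on the + strand. MPP7 encodes a scaffold protein of cell polarity, with the window chr10:28282074-28282373 on the - strand, at a start 53080 bp inside the gene. NDST4 encodes a heparan sulfate sulfotransferase, with the window chr4:115113571-115113870 on the - strand. Capitals mark the E-box letters CAGCTG, the SOX letters AACAAT and the ZIC letters CAGCAGG, searched on both strands. RGR, MPP7 and NDST4 hold the E-box letters, CLIP4 and MPP7 the ZIC letters, NDST4 the SOX letters, and C2orf80 and IRF8 none of them.
RGR: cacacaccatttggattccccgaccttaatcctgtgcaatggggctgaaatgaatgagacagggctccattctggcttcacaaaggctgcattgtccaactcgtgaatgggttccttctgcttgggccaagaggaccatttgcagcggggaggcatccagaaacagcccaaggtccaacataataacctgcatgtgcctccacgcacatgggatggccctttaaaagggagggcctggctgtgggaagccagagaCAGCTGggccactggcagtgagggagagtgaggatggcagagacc
C2orf80: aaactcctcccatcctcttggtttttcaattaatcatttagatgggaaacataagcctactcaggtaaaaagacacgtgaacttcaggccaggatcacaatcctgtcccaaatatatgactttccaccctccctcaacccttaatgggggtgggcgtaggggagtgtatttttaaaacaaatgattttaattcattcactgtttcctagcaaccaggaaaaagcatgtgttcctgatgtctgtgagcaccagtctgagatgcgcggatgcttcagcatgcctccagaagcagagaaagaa
IRF8: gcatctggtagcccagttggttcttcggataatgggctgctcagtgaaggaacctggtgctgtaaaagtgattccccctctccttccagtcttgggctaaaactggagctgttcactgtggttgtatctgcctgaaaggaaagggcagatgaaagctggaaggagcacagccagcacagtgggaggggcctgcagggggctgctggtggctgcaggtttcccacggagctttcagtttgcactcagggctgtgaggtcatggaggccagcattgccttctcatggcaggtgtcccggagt
CLIP4: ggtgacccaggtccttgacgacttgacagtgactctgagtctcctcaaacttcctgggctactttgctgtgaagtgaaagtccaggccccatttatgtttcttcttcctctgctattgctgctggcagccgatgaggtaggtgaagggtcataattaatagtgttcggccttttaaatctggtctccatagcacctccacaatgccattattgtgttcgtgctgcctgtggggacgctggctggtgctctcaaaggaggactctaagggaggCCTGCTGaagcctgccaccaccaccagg
MPP7: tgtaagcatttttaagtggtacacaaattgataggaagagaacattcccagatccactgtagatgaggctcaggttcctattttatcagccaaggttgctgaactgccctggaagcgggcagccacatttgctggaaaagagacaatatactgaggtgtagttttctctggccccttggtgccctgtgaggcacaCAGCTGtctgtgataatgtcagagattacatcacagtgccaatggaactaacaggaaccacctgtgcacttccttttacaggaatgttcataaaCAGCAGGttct
NDST4: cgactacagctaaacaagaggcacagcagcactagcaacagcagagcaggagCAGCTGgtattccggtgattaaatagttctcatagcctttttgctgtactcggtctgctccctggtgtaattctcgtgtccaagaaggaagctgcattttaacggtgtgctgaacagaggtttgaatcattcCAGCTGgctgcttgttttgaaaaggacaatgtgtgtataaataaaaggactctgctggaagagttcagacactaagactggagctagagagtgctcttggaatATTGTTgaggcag

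A pair of starts of 1 gene shows the difference in base composition between member starts and starts open in all 10 lists. CDH2 encodes N-cadherin, the adhesion protein that neural cells take up as they leave the pluripotent state. The table holds an outer start, whose window is chr18:28177081-28177380 on the - strand and which was open in all 10 lists, and an inner start 140489 bp inside the gene, whose window is chr18:28036592-28036891 on the - strand and which lies in a member. In the letters below, capitals mark each CG dinucleotide. The outer window has 23 of them and 67.0% G or C, the inner window 4 and 40.7%.
CDH2 outer start: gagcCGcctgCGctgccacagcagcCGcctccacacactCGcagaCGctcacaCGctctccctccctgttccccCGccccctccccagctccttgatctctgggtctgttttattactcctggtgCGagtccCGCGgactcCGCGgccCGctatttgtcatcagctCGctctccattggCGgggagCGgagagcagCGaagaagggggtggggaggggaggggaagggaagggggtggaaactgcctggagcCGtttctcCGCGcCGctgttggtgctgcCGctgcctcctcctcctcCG
CDH2 inner start: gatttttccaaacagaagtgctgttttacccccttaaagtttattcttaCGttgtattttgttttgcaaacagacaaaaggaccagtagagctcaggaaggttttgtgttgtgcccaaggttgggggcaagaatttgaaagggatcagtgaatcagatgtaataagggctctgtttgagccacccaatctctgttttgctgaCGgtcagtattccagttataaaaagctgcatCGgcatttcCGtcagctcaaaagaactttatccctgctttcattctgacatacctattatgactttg

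At the inner CDH2 start the region chr18:28036619-28037050 had no base under an hPSC peak. It had 241 bp under peaks in DE, 155 in aNE, 230 in pNE, 211 in aNE_T, 242 in aNE_M, 161 in aNE_H, 377 in pNE_T, 122 in pNE_M and 415 in pNE_H. The pNE_T and pNE_H peaks were the widest, and pNE_M, of the same origin, the narrowest. At the outer start the region chr18:28175153-28178561 had 2913 bp under peaks in hPSC, 2730 in DE and from 3100 to 3301 in the other 8 lists. The shared start was thus covered in pluripotent cells already, while the inner start gained a peak on day 1. A further member in the gene, chr18:28041451-28041721, was of nearly constant width, from 200 bp in aNE to 264 bp in pNE_H.

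Regions closed in exactly 1 list were most numerous for hPSC, the list by which the set is defined. Closed in hPSC alone were 5493 regions, in pNE_T alone 3914, in pNE_M alone 3336, in aNE alone 2825, in aNE_H alone 1803 and in DE alone 1014. Closed in 1 other list alone were 961 regions for aNE_T, 413 for pNE_H, 374 for pNE and 348 for aNE_M. The lists of pNE_T and pNE_M are not the shortest, so the order does not follow list length alone. The pluripotent list was the one most often missing by itself, followed by pNE_T and pNE_M, both of day 4, and these numbers have no replicate error.

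**Figure D1:**
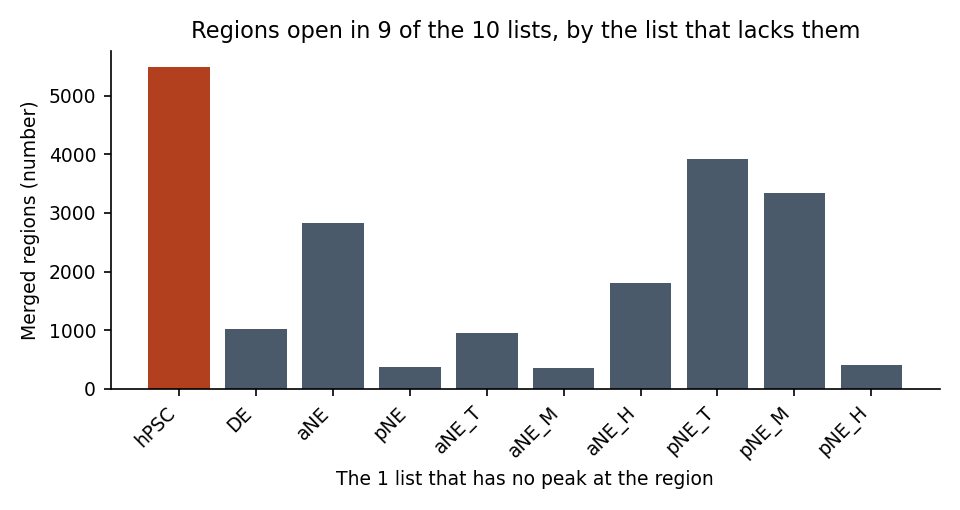
Merged regions (y axis, number) that are open in 9 of the 10 peak lists, by the 1 list without a peak (x axis), with hPSC, which defines the set described here, in red. The hPSC bar stands at 5493, above pNE_T at 3914 and pNE_M at 3336, while aNE_M, pNE and pNE_H stand below 500.

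Most of what opened in ectoderm was not kept in every later list. From hPSC to DE 72245 regions opened, and 5493 of them (7.6%) were open in all 8 later lists, which is the set. Another 26012 (36.0%) were open in none of the 8 later lists, and the remaining regions were open in 1 to 7 of them. The 151028 regions already open in hPSC and still open in DE were kept in all 8 later lists in 78808 cases (52.2%), and were lost from all 8 in 13138 (8.7%). Newly opened regions were open in single later lists in between 26.2% (pNE_M) and 39.8% (pNE_H) of cases. In aNE 30.8% of them were open and in pNE 31.5%, so the day 2 populations kept nearly equal shares. On day 4 the aNE-derived lists kept 37.0% (T), 35.1% (M) and 28.8% (H), and the pNE-derived lists 28.0% (T), 26.2% (M) and 39.8% (H). Neither origin was the higher in all 3 media: the pNE-derived list kept more in hindbrain medium, and the aNE-derived list in the other media. Regions open in both hPSC and DE had the same order, so it is not particular to newly opened regions. Of those, the aNE-derived lists kept 76.8% (T), 76.1% (M) and 71.6% (H), and the pNE-derived lists 68.4%, 67.5% and 77.9%. The pNE_H list is also the longest, and the part of list length in these shares was not tested.

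Near misses of the rule were more numerous than members. Regions closed in hPSC and missing exactly 1 of the 9 later lists came to 6393. The missing list was DE in 1773, aNE in 1494, pNE_T in 968, pNE_M in 792, aNE_H in 666, aNE_T in 287, pNE_H in 166, pNE in 160 and aNE_M in 87. Just inside the rule, the narrowest of a member's 9 peaks had a median of 173 bp. Just outside it, the narrowest of the 8 peaks present had medians of 129 to 156 bp by missing list. The shortest peaks of any list were 109 to 126 bp, so both sides of the rule hold many peaks near the least width that was called.

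In ectoderm the members were wider than most newly opened regions and narrower than regions already open. In bulk libraries such as these, a site open in few cells and a site weakly open in all cells cannot be told apart. The median member had 261 bp under DE peaks (quartiles 178 and 396), against 180 bp over all regions opened in DE, 157 bp over those lost from every later list, and 370 bp over those open in both hPSC and DE. The wider the DE peak, the more often the region was kept. Of newly opened regions with under 150 bp under DE peaks 3.33% were kept, of those with 200 to 299 bp 8.4%, of those with 400 to 599 bp 18.6%, and of those with 1000 bp or more 46.4% (32 of 69, Wilson 95% interval 35.1 to 58.0%). At equal width, regions that were already open in hPSC were kept more often: 11.3%, 37.3% and 60.7% in the first 3 of these classes, and 15155 of 15946 in the last. The gap between new and old regions was thus present in each of these width classes. These shares come from the same peak calls that chose the members and are a description. Wilson intervals here and below cover the sampling of regions and not the error between libraries.

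**Figure D2:**
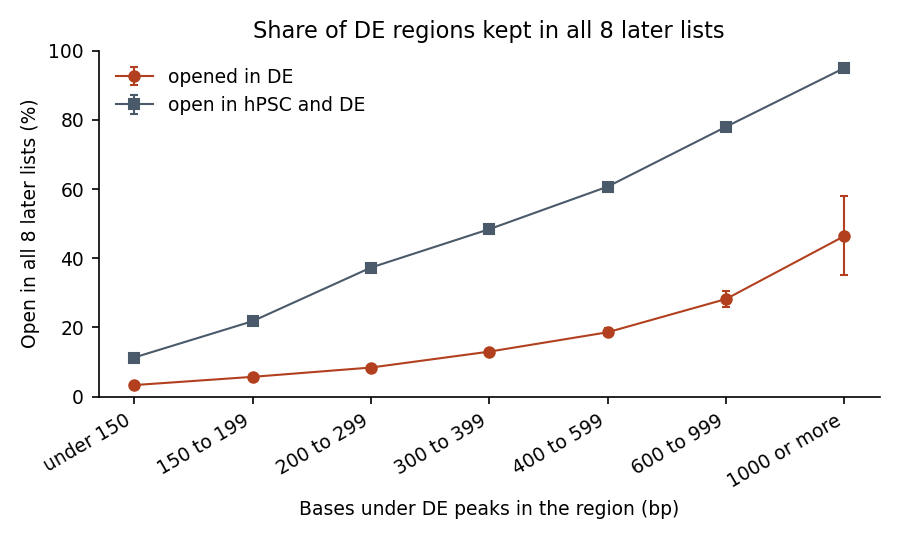
Share of regions open in all 8 lists after DE (y axis, %) by the number of bases under DE peaks (x axis, bp), for regions that opened in DE (red circles) and regions open in both hPSC and DE (grey squares), with Wilson 95% intervals. Both lines climb with width, from 3.33% to 46.4% for new regions and upwards from 11.3% for old ones, and the red line is the lower in every class.

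Past ectoderm the members were wider. Their median width was 301 bp in aNE, 385 bp in pNE, 408 bp in aNE_T, 417 bp in aNE_M, 348 bp in aNE_H, 393 bp in pNE_T, 365 bp in pNE_M and 499 bp in pNE_H. Region by region, the ratio to DE had a median of 1.13 in aNE, 1.36 in pNE and 1.73 in pNE_H, with the other 5 lists between 1.28 and 1.47. The regions open in all 10 lists had median ratios of 0.956 (pNE_M) to 1.13 (pNE_H). These ratios are not matched for the width in DE, which was larger in the regions open in all 10. DE was the narrowest of the 9 lists in 1720 members (31.3%), against 17.0% of the regions open in all 10 lists, where pNE_M was the narrowest of these 9 most often (21.3%). The widest list was pNE_H in 1830 members (33.3%) and in 29.6% of the regions open in all 10. The pNE_H list was also the one with most peaks, and the part of its length in its widths was not tested.

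**Figure D3:**
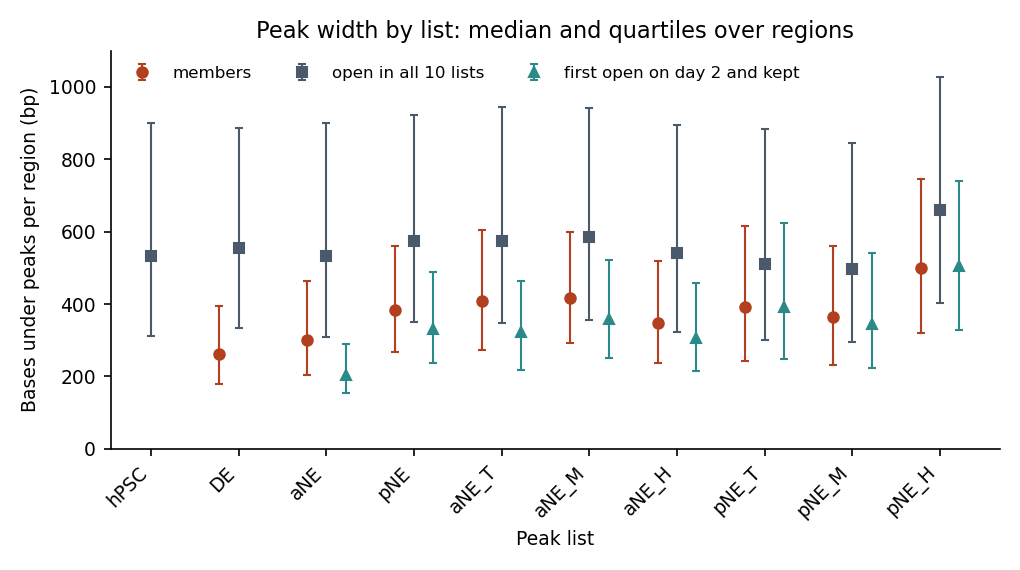
Bases under peaks per region (y axis, bp) in each peak list (x axis), as the median with lower and upper quartiles over the 5493 members (red circles), the 78808 regions open in all 10 lists (grey squares) and the 1773 regions first open on day 2 and kept (green triangles). Member medians run from 261 bp in DE to 499 bp in pNE_H, whereas the regions open in all 10 lists stay between 498 and 660 bp.

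In 2223 members (40.5%) more bases lay under peaks in each of the 6 day 4 lists than in DE. The same held for 23.3% of all 89539 regions open in DE and those 6 lists and 21.4% of the regions open in all 10. In 214 members (3.9%) fewer bases lay under peaks in all 6 than in DE, beside 14.8% of the regions open in all 10. The shares differed with the width in DE. Among regions with under 150 bp in DE, 86.2% of members and 78.4% of the regions open in all 10 were wider in all 6 day 4 lists. From 200 to 299 bp these shares were 37.2% and 27.9%, and from 300 to 399 bp 25.7% and 19.0%. From 400 to 599 bp they were nearly equal, at 15.3% and 15.8%, and from 600 to 999 bp the members had the lower share, at 9.05% against 15.6%. At matched DE width the excess of members was thus confined to regions under 400 bp, and it was smaller than the pooled shares show.

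The order of the later lists by member width did not divide them by origin. The medians of the 3 aNE-derived day 4 lists ran from 348 to 417 bp and those of the 3 pNE-derived lists from 365 to 499 bp, so they overlapped. On day 2 members were wider in pNE than in aNE in 66.4% of cases, with a median ratio of 1.19, against 1.03 over the regions open in all 10 lists. In hindbrain medium pNE_H exceeded aNE_H in 72.9% of members, with a ratio of 1.29 against 1.12. In midbrain medium the ratio of pNE_M to aNE_M was 0.898 against 0.903, and in forebrain medium that of pNE_T to aNE_T was 0.979 against 0.937. The regions first open on day 2 and kept began narrower still, with medians of 203 bp in aNE and 331 bp in pNE, and reached 504 bp in pNE_H, close to the 499 bp of the members.

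Peaks of the 9 lists mostly met on the same bases. In 5014 members (91.3%) at least 1 base was under a peak in all 9 lists, with a median shared stretch of 134 bp (quartiles 99 and 193) inside regions with a median length of 686 bp. In the other 479 members the 9 lists shared no base, so these met the rule by peaks that chain along a region. A single peak in each of the 9 lists was found at 3932 members (71.6%). Shared bases and single peaks were counted for the members only, so these shares are not known to be particular to them. Together the members spanned 4.08 Mb.

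The members lay about as far from pluripotent peaks as other regions closed in hPSC. The nearest hPSC peak lay at a median of 4620 bp, against 4560 bp over all regions closed in hPSC and 3706 bp over all regions opened in DE. Within 200 bp of an hPSC peak lay 47 members (0.856%), beside 1.96% of all regions closed in hPSC and 2.66% of regions opened in DE. Within 1 kb lay 865 (15.7%), beside 17.6% and 21.3%. More than 10 kb from any hPSC peak lay 1474 (26.8%), beside 27.1% and 20.8%. Members did not bunch: the region just before or just after along the chromosome was another member for 147 of them (2.68%), and was a member for 2.29% of all merged regions. They lay next to a region open in all 10 lists in 26.8% of cases, beside 29.8% of all merged regions.

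By chromosome the share of merged regions that were members ran from 0.408% (39 of 9560) on chromosome 19 to 1.38% (413 of 30003) on chromosome 5. The second lowest, chromosome 17, stood at 0.897%. Chromosomes 19 and 17 are known to be dense in genes, and 19 stood apart from the other 21, which ran from 0.897% to 1.38%.

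Members lay near gene starts less often than the regions open in all 10 lists, and at 1 kb slightly more often than the regions outside that class. Gene starts came from the RefSeq promoter table, which holds none on chromosome 8, so the 284 members there were left out of measures that use starts. Of the other 5209 members, 166 (3.19%, Wilson 95% interval 2.74 to 3.7%) lay within 1 kb of a start, beside 5.49% of all merged regions, 19.4% of the regions open in all 10 lists and 2.71% of the regions not open in all 10. No member is open in all 10 lists, and the last of these leaves that class out. It was not matched to the members for region length or for the number of lists open. Under the 50% coverage rule given above the share was 5.99%, on the other side of the 5.49% of all merged regions. The regions first open on day 2 and kept had a like share, 3.69% (2.89 to 4.7%), whose interval overlaps that of the members. Their median length, 649 bp, was also near the 686 bp of the members. A start lay inside 83 members (1.59%, 1.29 to 1.97%), beside 3.51% of all merged regions, 17.2% of the regions open in all 10 and 0.771% of the regions not open in all 10. Of the regions first open on day 2 and kept, 2.02% (1.45 to 2.81%) held a start. At the other end, 45.6% of members lay more than 50 kb from any start in the table, beside 28.8% of the regions open in all 10, 42.1% of those not open in all 10 and 39.9% of all merged regions. The median distance was 42690 bp for members, 21186 bp for the regions open in all 10, 38416 bp for those not open in all 10 and 35298 bp for all merged regions. The midpoint fell inside a protein-coding gene in 47.4% of members and in no annotated gene in 37.7%, close to the 50.0% and 36.4% of all merged regions. The table has a start for 82.0% of protein-coding genes off chromosome 8, so true distances are somewhat shorter for every set.

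The 83 members with a start held 90 starts of 84 genes, of which 34 were protein-coding and 56 (62.2%) were starts of long non-coding RNAs. Long non-coding RNAs made up 37.3% of all starts, 20.7% of the 18985 starts in regions open in all 10 lists, 48.7% of the 3011 starts in other regions and 61.1% of the 11639 starts in no region. The windows at member starts were poor in CG: a median of 4.0 CG dinucleotides in 300 bases and 47.5% G or C, against 26.0 and 66.0% for starts open in all 10 lists, 5.0 and 51.0% for starts in other regions and 3.0 and 45.7% for starts in no region. At least 15 CG dinucleotides were found in 2 of the 90 (2.22%), those of MKX-AS1 (32) and LOC105378604 (16), which were named after their values were seen. Among starts open in all 10 lists 79.9% reached that number, among starts in other regions 12.6% and among starts in no region 8.56%. A low median CG number was thus shared with the starts in other regions and in no region, and it set the member starts apart from the starts open in all 10 lists. Starts with at least 15 CG dinucleotides were also a smaller share in members than in other regions or in no region, a share that rests on 2 starts.

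**Figure D4:**
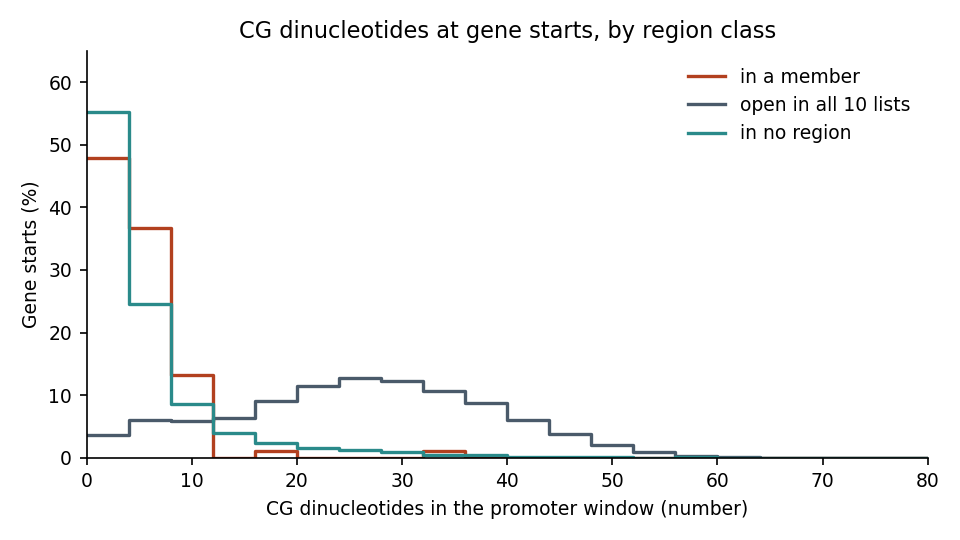
Share of gene starts (y axis, %) by the number of CG dinucleotides in the 300 bases around the start (x axis, number, in steps of 4), for the 90 starts in members (red), the 18985 starts in regions open in all 10 lists (grey) and the 11639 starts in no region (green). The red line follows the green one below 12, with 47.8% of member starts under 4, and the grey line peaks above 20.

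Of the 34 protein-coding starts 21 lay more than 1 kb inside the gene and 13 within 1 kb of its outer end, and for 20 genes another start in the table lay in a region open in all 10 lists. Among them are starts of DICER1, the enzyme that cuts microRNA precursors, 24507 bp inside the gene, and of SMAD3, which carries activin and NODAL signals, 60140 bp inside. LIMK1, a kinase of actin turnover, and LINGO1, a neuronal membrane protein, are others. The SMAD3 region had 320 bp under peaks in DE, 125 in aNE, 478 in pNE, 269 in aNE_T, 674 in aNE_M, 579 in aNE_H, 357 in pNE_T, 631 in pNE_M and 817 in pNE_H. It was thus narrowest in aNE and widest in pNE_H. The TENM2 start in a member, 775900 bp inside the gene, had 345 bp in DE, 443 in aNE, 562 in pNE, 295 in aNE_T, 275 in aNE_M, 196 in aNE_H, 630 in pNE_T, 421 in pNE_M and 558 in pNE_H. There every pNE-derived day 4 list was wider than every aNE-derived one. These genes were chosen after their values were seen.

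The 6 starts whose letters are printed above had no hPSC base under a peak. RGR had 541 bp in DE, 468 in aNE, 472 in pNE, 904 in aNE_T, 1217 in aNE_M, 548 in aNE_H, 1137 in pNE_T, 554 in pNE_M and 774 in pNE_H. It was widest in aNE_M and pNE_T and of similar width in DE and day 2. NDST4 had 264 bp in DE, 310 in aNE, 549 in pNE, 656 in aNE_T, 622 in aNE_M, 672 in aNE_H, 631 in pNE_T, 536 in pNE_M and 624 in pNE_H, so all 6 day 4 lists were at least 536 bp. IRF8 was of even width, from 318 bp in aNE_H to 495 bp in DE, which was its widest list. C2orf80 ran from 368 bp in DE to 815 bp in pNE_T, CLIP4 from 271 bp in aNE_H to 520 bp in pNE_H, and MPP7 from 266 bp in aNE to 986 bp in aNE_T.

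Short motif letters were counted in the 300 bases at 83 member starts (1 per member) and at all 33725 starts of the table, on both strands, for 29 motifs in all. The E-box letters CAGCTG, the form that proneural proteins are known to bind, were in 28 of the 83 (33.7%, Wilson 95% interval 24.5 to 44.4%), beside 18.0% of all starts, 17.5% of starts open in all 10 lists, 24.3% of starts in other regions and 17.1% of starts in no region. The ZIC letters CAGCAGG were in 17 (20.5%, 13.2 to 30.4%), beside 10.5% of all starts, 15.4% of starts in other regions and 9.79% of starts in no region. The SOX letters AACAAT were also in 17 (20.5%), beside 10.2% of all starts, 422 of the 3011 starts in other regions and 17.5% of the starts in no region. The AP-1 letters TGANTCA were in 14 (16.9%), beside 7.67% of all starts, 12.9% of starts in other regions and 11.7% of starts in no region, and the MEIS letters TGACAG in 22 (26.5%), beside 15.8%, 20.9% and 19.1%. The POU octamer ATGCAAAT was in 0 of the 83, beside 1.75% of all starts. The SP and KLF letters GGGGCGGGG, in 15.8% of all starts, and the ETS letters CCGGAAGT, in 4.19%, were in 0 of the 83. Both of these hold a CG. They were in 5.61% and 0.864% of the starts in other regions, and in 2.49% and 0.722% of the starts in no region. The interval of a count of 0 in 83 reaches 4.42%, which is above the share of the ETS letters and of the octamer over all starts. For the SP and KLF letters it stays below the share of all starts and of starts in other regions, but not below that of starts in no region. The motifs shown in capitals were picked from the 29 after their counts were seen. For 9 of the 29 motifs the interval lay above the share of all starts: the E-box, ZIC, SOX, AP-1 and MEIS letters, and also AGATAA of GATA factors (in 16 of the 83), TTGGCA of NFI (17), ATCAAAG of LEF and TCF (6) and TTCCNGGAA of STAT (3). For the E-box alone it also lay above the share of starts in other regions, by a narrow margin, and for the E-box, the ZIC letters and GTTGCCNNG of RFX above that of starts in no region. No correction for the number of motifs was made. A match is a run of letters and not a bound site.

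Around genes, the members were read against all merged regions in the same windows, from 50 kb before a gene to 50 kb after it. A member counted for a gene by this window can lie inside another gene or nearer to one. Of 19126 protein-coding genes 4269 (22.3%) had a member in this window. For 13 gene lists the share of regions that were members ran from 0% to 2.14%, beside 1.15% of all merged regions. The windows of a list hold few members, the genes of a list can share regions, and long genes give more regions, so the shares are given as counts of regions and as a description.

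Genes of the neural state had a share of members that could not be told from the background. Of 18 pan-neural genes found, 4 had a member, in 5 of 682 regions (0.733%, 0.314 to 1.7%). SOX2 had none among 39 regions. Around these genes 24.9% of regions were open in all 10 lists, beside 16.6% of all merged regions. PAX6, a master factor of eye and forebrain, had 1 member, chr11:31787985-31788483, inside the neighbouring gene ELP4. It had 217 bp under peaks in DE, 305 in aNE, 352 in pNE, 430 in aNE_T, 303 in aNE_M, 232 in aNE_H, 499 in pNE_T, 382 in pNE_M and 443 in pNE_H, so DE was the narrowest and both forebrain lists were among the 3 widest. ZIC1, a zinc finger factor of the dorsal neural tube, had 1 member, chr3:147369345-147370055, inside the protein-coding gene LOC124909494. It had 160 bp in DE, 395 in aNE, 584 in pNE, 580 in aNE_T, 594 in aNE_M, 683 in aNE_H, 612 in pNE_T, 469 in pNE_M and 635 in pNE_H. Its DE peak was less than any later one. POU3F3, a neural POU factor, had 1 member of 136 bp (pNE_T) to 611 bp (pNE_H).

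Regional genes of the brain had a share near the background. Of 18 anterior genes 7 had a member, 8 of 563 regions (1.42%, 0.722 to 2.78%), and of 20 posterior genes 8 had one, 10 of 810 regions (1.23%, 0.672 to 2.26%). These members are open in both anterior and posterior lists by the rule. OTX2, which specifies fore- and midbrain, had 1 member, chr14:56821229-56821491 within OTX2-AS1, with 205 bp in DE, 155 in aNE, 167 in pNE, 263 in aNE_T, 189 in aNE_M, 165 in aNE_H, 158 in pNE_T, 187 in pNE_M and 141 in pNE_H. It was a small peak throughout, narrowest in pNE_H. LMX1B, of the midbrain-hindbrain boundary, had 2 members, and EMX1 and FEZF1, both of the forebrain, 1 each. The FEZF1 member, chr7:122336766-122338032, lies inside CADPS2 and had 494 bp in DE, 1237 in aNE, 654 in pNE, 1144 in aNE_T, 680 in aNE_M, 380 in aNE_H, 498 in pNE_T, 347 in pNE_M and 591 in pNE_H. There the aNE and aNE_T peaks were the widest, both of the anterior branch.

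Among posterior genes RARB, a receptor of retinoic acid, had 3 members. The widest of them, chr3:25349858-25351230, had 730 bp in DE, 1109 in aNE, 1120 in pNE, 1146 in aNE_T, 821 in aNE_M, 441 in aNE_H, 1369 in pNE_T, 976 in pNE_M and 1348 in pNE_H. The aNE_H list was the narrowest and pNE_T the widest, and aNE, grown without the retinoid TTNPB, and pNE, grown with it, differed by 11 bp. The smaller RARB members, chr3:25259867-25260295 and chr3:25293809-25294110, ran from 242 to 399 bp and from 158 to 281 bp. MEIS2, a partner of HOX proteins, had 2 members, and CDX1 and HOXA3 1 each. The CDX1 member lies inside PDGFRB. The HOXA3 member, chr7:27173079-27173865, lies outside HOXA3, in HOXA10 and the HOXA10-HOXA9 read-through gene, 455 bp from a HOXA10 start. It is 1 of the 479 without a shared base, with 117 bp in DE, 164 in aNE, 161 in pNE, 340 in aNE_T, 646 in aNE_M, 605 in aNE_H, 482 in pNE_T, 302 in pNE_M and 380 in pNE_H.

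Genes of other fates were not free of members. Of 12 mesendoderm genes 5 had a member, 5 of 308 regions (1.62%, 0.695 to 3.74%), among them FOXA2, GATA6, GSC and MIXL1 with 1 each. The MIXL1 member lies inside LIN9. The FOXA2 member, chr20:22562039-22562980 in LINC00261, had 119 bp in DE, 675 in aNE, 625 in pNE, 842 in aNE_T, 821 in aNE_M, 849 in aNE_H, 858 in pNE_T, 667 in pNE_M and 761 in pNE_H. FOXA2 is a factor of endoderm and also of the floor plate of the neural tube. The peak was close to the least width called in DE and over 600 bp in each later list. Of 16 genes of surface ectoderm and neural crest 3 had a member, 4 of 586 regions (0.683%, 0.266 to 1.74%): PAX3 with 2, and GRHL2 and TFAP2A with 1 each. Of 13 pluripotency genes 3 had a member, 3 of 427 regions (0.703%, 0.239 to 2.05%), at ESRRB, L1TD1 and LIN28A. Of 18 housekeeping genes none had a member in 422 regions, where a count of 0 allows a share of up to 0.711% (3 counts) and the Wilson interval reaches 0.902%.

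The lists of signalling pathway genes gave shares on both sides of the background. NODAL and BMP genes had 11 members in 697 regions (1.58%, 0.883 to 2.8%), FGF and ERK feedback genes 8 in 687 (1.16%, 0.591 to 2.28%), WNT genes 12 in 1179 (1.02%, 0.583 to 1.77%) and Notch genes 5 in 625 (0.8%, 0.342 to 1.86%). All 4 intervals hold 1.15%. BMPR1B, a receptor of BMP, had 4 members, and the ligands BMP2 and BMP7 and the decoy receptor BAMBI 1 each. A BMPR1B member, chr4:94725432-94726223, had 456 bp in DE, 525 in aNE, 575 in pNE, 548 in aNE_T, 531 in aNE_M, 510 in aNE_H, 651 in pNE_T, 371 in pNE_M and 785 in pNE_H, and the nearest hPSC peak was 22332 bp off. SPRED2, which dampens ERK signalling, had 3 members, and the ERK phosphatase DUSP6, the receptor FGFR3 and the immediate early gene FOS 1 each. The DUSP6 member, chr12:89319153-89319401, stayed between 153 bp (pNE_T) and 249 bp (aNE_H) and was 198 bp in DE, the group grown with the MEK inhibitor.

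In the WNT list the receptor FZD3 and the ligand WNT1 had 2 members each, and FZD8 and the feedback ligase RNF43 1 each. A WNT1 member, chr12:48986391-48987576, had 124 bp in DE, 925 in aNE, 999 in pNE, 1168 in aNE_T, 960 in aNE_M, 839 in aNE_H, 1052 in pNE_T, 896 in pNE_M and 1027 in pNE_H. It went from a minimal peak in DE to over 800 bp in each later list, and it holds a start of the non-coding RNA LOC105369757. The other WNT1 member, chr12:48969836-48970636, lies inside WNT10B. It did not take this course, with 410 bp in DE and 193 bp (pNE_T) to 801 bp (pNE_H) later. In the Notch list the ligand JAG1 had 2 members, and the ligand DLL1, the target HEY1 and the ligand-activating ligase MIB1 1 each. A JAG1 member, chr20:10603614-10604812 inside SLX4IP, had 327 bp in DE, 422 in aNE, 732 in pNE, 981 in aNE_T, 1065 in aNE_M, 1034 in aNE_H, 986 in pNE_T, 1104 in pNE_M and 1197 in pNE_H. It was narrowest in DE, intermediate on day 2 and at least 981 bp in all 6 day 4 lists. The other JAG1 member, chr20:10655583-10656137, changed less, with 261 bp in DE and 276 bp (aNE_H) to 548 bp (pNE_M) later.

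The lists of cell contact and axon guidance genes had shares above the background. The gene lists were chosen with earlier results of these data known, so these shares are a description and no independent support. Eph receptors and ephrins, the paired receptors and ligands by which cells repel one another across tissue borders, had 18 members in 843 regions (2.14%, 1.35 to 3.35%), at 9 of 14 genes, the highest share of the 13 lists. Adhesion and axon guidance genes had 74 in 4704 regions (1.57%, 1.26 to 1.97%), at 23 of 28 genes. In both lists the Wilson interval lies above 1.15%, and it treats regions as independent. The mesendoderm list (1.62%) and the NODAL and BMP list (1.58%) had shares as high as the adhesion list. They hold fewer regions, and their wider intervals hold 1.15%. Few genes gave many of the members: of the 18 in the Eph list, EFNA5 had 6 and EPHB1 4. Fewer regions in the windows of adhesion genes were open in all 10 lists (12.4% against 16.6%). Of regions not open in all 10, members made up 2.63% by the Eph genes and 1.8% by the adhesion genes, beside 1.38% overall. On that scale the mesendoderm list had 2.17%, again above the adhesion list. The anterior list had 2.02%, above the adhesion list here but below it among all regions (1.42%). The order of these lists thus depends in part on which regions are counted.

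**Figure D5:**
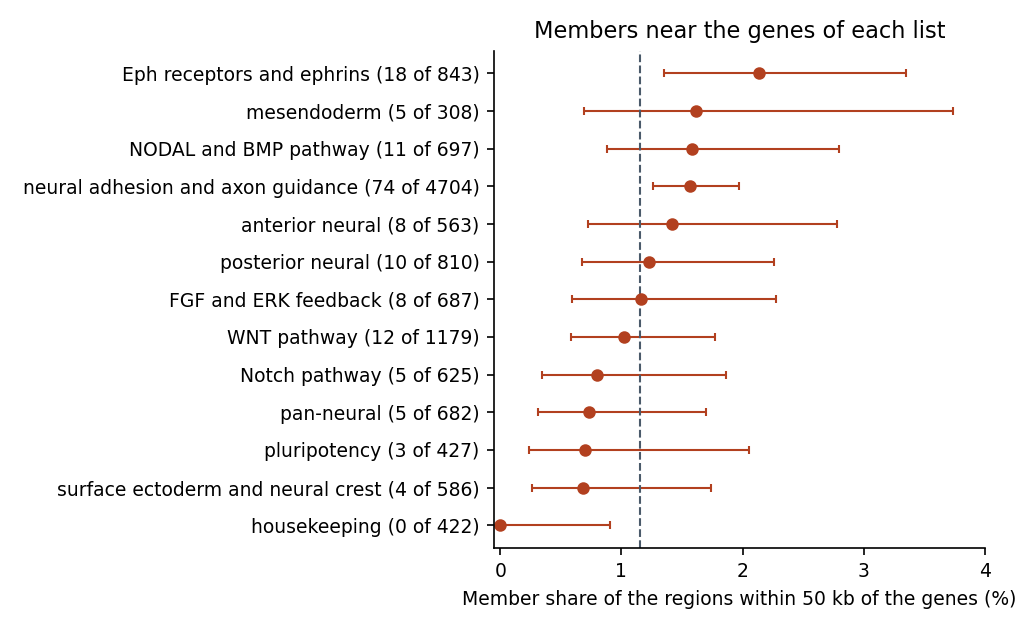
Share of the merged regions within 50 kb of the genes of each list that are members (x axis, %), with Wilson 95% intervals and the number of members and regions beside each list name, against the 1.15% of all merged regions (dashed line). The Eph and ephrin list stands at 2.14% and the adhesion list at 1.57%, with intervals above the line, and the housekeeping list at 0 of 422. The lists were chosen with earlier results of these data known.

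EFNA5, an ephrin ligand, had 6 members inside it, spread over the gene. The member at chr5:107660878-107661783, 9154 bp from its start, had 188 bp in DE, 252 in aNE, 742 in pNE, 580 in aNE_T, 618 in aNE_M, 604 in aNE_H, 573 in pNE_T, 861 in pNE_M and 867 in pNE_H. Another, chr5:107592465-107593540, had 204 bp in DE, 385 in aNE, 600 in pNE, 690 in aNE_T, 856 in aNE_M, 731 in aNE_H, 934 in pNE_T, 496 in pNE_M and 835 in pNE_H. Both were narrowest in DE, next in aNE and wider in every other list. One more, chr5:107549483-107549932, went the other way, with its widest peak in DE (384 bp) and its narrowest in pNE_M (125 bp). The receptor EPHB1 had 4 members and EPHA3 2, while EFNB2, EPHA2, EPHA4, EPHA5, EPHA7 and EPHB3 had 1 each. The EFNB2 member, chr13:106488639-106489290, lies 780 bp from the gene and ran from 258 bp (aNE) to 620 bp (pNE_H).

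TENM4, a teneurin of neuronal contacts, had 8 members inside it. At chr11:78949637-78950539 it had 240 bp in DE, 779 in aNE, 831 in pNE, 808 in aNE_T, 783 in aNE_M, 697 in aNE_H, 895 in pNE_T, 863 in pNE_M and 888 in pNE_H. At chr11:79312653-79314155 it had 117 bp in DE, 847 in aNE, 534 in pNE, 366 in aNE_T, 381 in aNE_M, 218 in aNE_H, 1019 in pNE_T, 724 in pNE_M and 1503 in pNE_H. The first was uniformly wide from day 2 on, and the second wider in each pNE-derived day 4 list than in any aNE-derived one. One more TENM4 member, chr11:78990962-78992105, had 709 bp in DE already and 330 bp (pNE_M) to 1002 bp (aNE_M) later. PTPRD, a receptor phosphatase of synapses, had 7 members in its window, and AUTS2, a neurodevelopmental nuclear protein, and TENM2 6 each. The widest AUTS2 member, chr7:70025497-70026499, had 736 bp in DE, 562 in aNE and 778 to 948 bp in the other 7 lists.

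When each member was given to the nearest protein-coding gene by the whole interval of the gene, 3350 genes had at least 1, of which 2188 had 1 and 99 had 5 or more. TENM4 had 13 of the 465 regions assigned to it, followed by ZNF608 with 12 of 320, and FLRT2, LRRC4C, RBFOX1 and TENM2 with 10 each. FHIT had 9, and CADM1, EFNA5, EPHA7, LRMDA, NRXN3, PTPRD and TENM3 had 8 each. FLRT2, LRRC4C, CADM1 and the teneurins are adhesion proteins of neural cells, and RBFOX1 is a splicing regulator of neurons. Many of these genes are long or lie in gene deserts and so collect many regions of every kind. Per region, TENM4 stood at 2.8%, ZNF608 at 3.75%, FLRT2 at 4.31% and RBFOX1 at 1.91%, beside 1.15% of all merged regions. The other genes named by this assignment ran from 1.34% (TENM3, 8 of 599) to 3.14% (EPHA7, 8 of 255). PTPRD stood at 1.77%. FHIT and LRMDA, both at 2.75%, were close to TENM4. Counted by the nearest gene start in the table instead, ZNF608 had 12, FLRT2 10, API5 and EFNA5 9 each, and BEAN1, CYLD, EPHA7, INHBA, LOC124901234, MICAL2, NRXN3, PTPRD, RBFOX1, SPRY1, TENM3 and TENM4 8 each, so the TENM4 count was 13 or 8 by the way of assignment. The table lacks the starts of some genes, so API5, BEAN1 and CYLD can stand in for a neighbour whose start is missing.

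The ZNF608 members spread from 264410 bp on one side of the gene to 628432 bp on the other, and 1 lay inside it. At chr5:125059256-125060199 the list values were 168 bp in DE, 611 in aNE, 844 in pNE, 694 in aNE_T, 878 in aNE_M, 878 in aNE_H, 872 in pNE_T, 866 in pNE_M and 888 in pNE_H. At chr5:124491958-124492743 the DE peak was the widest, with 744 bp, against 656 in aNE, 432 in pNE, 411 in aNE_T, 305 in aNE_M, 274 in aNE_H, 569 in pNE_T, 244 in pNE_M and 248 in pNE_H. Members around 1 gene thus took opposite courses after ectoderm. Around FLRT2, chr14:85761692-85762877, 107857 bp from the gene, had 491 bp in DE, 728 in aNE, 932 in pNE, 1008 in aNE_T, 944 in aNE_M, 955 in aNE_H, 1065 in pNE_T, 959 in pNE_M and 1178 in pNE_H, and the nearest hPSC peak was 28925 bp away.

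The 5 members with the widest narrowest peak were chosen by their width in their narrowest list, with DE among the lists. That they were broad from day 1 follows from this choice and is not a result. The first, chr16:27717697-27719371 inside KATNIP, had 1236 bp in DE, 1000 in aNE, 1049 in pNE, 1163 in aNE_T, 1166 in aNE_M, 1454 in aNE_H, 1033 in pNE_T, 1173 in pNE_M and 1457 in pNE_H. The second, chr4:139808288-139809772 inside MAML3, a coactivator of Notch, had 1062 bp in DE, 977 in aNE, 1350 in pNE, 1254 in aNE_T, 1199 in aNE_M, 1211 in aNE_H, 1288 in pNE_T, 1419 in pNE_M and 1339 in pNE_H. The KATNIP region was wider in DE than in 6 of the 8 later lists, and the MAML3 region was wider in DE than in aNE alone. The third, chr3:60572858-60574763, lies inside FHIT and ran from 962 bp (aNE) to 1277 bp (aNE_M). The fourth, chr1:67646001-67647299, overlaps the pseudogene HNRNPCP9 and ran from 961 bp (DE) to 1290 bp (pNE_M). The fifth, chr11:109782456-109784477, overlaps the non-coding RNA gene LINC02715 and ran from 943 bp (DE) to 2007 bp (pNE_H). All 5 had 0 bp under hPSC peaks, with the nearest such peak 1128 to 6497 bp away.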

How the data were processed

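The deposited files are 1 peak list per group, made by the authors from OmniATAC-seq libraries of H1 cells (3 per group, 50000 cells each, per the labels' protocols). Their columns are sequence name, start and end, with no header, so the deposited values are peak positions and hold no score, fold, signal or count. The submitters' processing notes name FastQC, Bowtie2, MACS2, bedtools, featureCounts, edgeR, deepTools and hg38. The versions, the roles, the threshold, the filters and the way in which 3 libraries became 1 list are not given in the sources used here. A looser threshold or a deeper library can make a list longer and its peaks wider, which moves every count of open regions.

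From these, peaks on chromosomes 1 to 22 were merged at an overlap of 1 bp, and the bases under peaks were counted per region and list (Python 3.11.15, numpy 2.4.6, pandas 2.3.3, scipy 1.17.1, matplotlib 3.10.9). The merging and the rule were tested on simulated data. Gene intervals, promoter sequences and microRNA positions came from RefSeq tables of GRCh38.p14, the assembly of hg38. The members and the gene lists were chosen with earlier results of these data known. Named were the 4 genes with most members in each list, the 10 with most by nearest start and the 5 members with the widest narrowest peak. The 10 with most by nearest interval were added because the promoter table has a start for 82.0% of genes, which was found after the data were seen. Intervals are Wilson intervals at 95%. No test was made, because no value per library is at hand. Alternatives were coverage, list length, fixed windows, distance to hPSC peaks, shared bases, the distance that counts as near a start and leaving each later list out of the rule.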

Additional observations from a re-analysis of the deposited data

Results flagged for a closer look

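Chromosome X was outside the chromosomes used for the set, and regions that meet the same rule were found there too. They numbered 185 of 16790 merged regions on that chromosome, or 1.1% (Wilson 95% interval 0.955 to 1.27%), above the 3 counts that a count of 0 allows. The interval holds the 1.15% of chromosomes 1 to 22. These 185 regions enter no value of the text above.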

How the results depend on the processing

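Counting a list as open only where its peaks cover at least 50% of a merged region gave 2554 members, of which few are the same: 507 (9.23%) of the 5493 members met that rule as well. The share within 1 kb of a start was then 5.99% instead of 3.19%, above and not below the 5.49% of all merged regions. With each list shortened to its 162041 widest peaks there were 3915 members, which overlapped 45.6% of the original ones, and the share was 3.76%. Without members that have an hPSC peak within 1 kb it was 2.65%. With another distance it was 1.84% within 200 bp and 8.95% within 5 kb. The last pair changes the distance itself. Why the other values moved was not tested. Fixed windows of 500 bp gave 5488 members, overlapping 97.3% of the original ones, and leaving 1 later list out of the rule gave 5580 to 7266. In the 11 other settings run for the share it lay between 3.11% and 3.67%. No paired analysis was possible because each group has 1 list for its 3 libraries, and for the same reason no replicate could be left out. The depth of the libraries is unknown, so a region without a peak may be open below the level at which a peak was called.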

Other observations

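The set also held 4 microRNA hairpins listed by RefSeq: MIR4705 on chromosome 13, MIR4310 on chromosome 15, MIR3185 on chromosome 17 and MIR519D on chromosome 19. No share of hairpins over all merged regions is at hand, so whether 4 is many or few cannot be said. All 4 regions were narrow in DE, with 122 bp at MIR4705, 181 bp at MIR4310, 121 bp at MIR3185 and 157 bp at MIR519D, and each was wider in aNE, at 257, 551, 368 and 335 bp in the same order. At MIR4310 the 3 pNE-derived day 4 lists had 1099 to 1186 bp and the 3 aNE-derived ones 407 to 597 bp. MIR519D belongs to the microRNA cluster of chromosome 19, which is known for its expression in placenta and pluripotent cells. Its region had no peak in hPSC, 670 bp in aNE_M, 740 bp in pNE_M and 231 bp in pNE_T.

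Some genes with shorter intervals had high shares of members among the regions nearest to them. DUSP10, a phosphatase of stress kinases, had 7 of 130 (5.38%) and POU3F2, a POU factor of neural cells, 7 of 144 (4.86%), beside 1.15% of all merged regions. Both were picked after their values were seen from 3350 genes with a member, and none of the 7 POU3F2 members lies inside that short gene.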
